A study of Mus musculus with 4 samples.

Results

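The carboxylesterase genes described here are Ces1b, Ces1c, Ces1d, Ces1e, Ces1f, Ces1g, Ces2a, Ces2e, Ces2g and Ces3a, which are 10 of the 24063 gene symbols measured. They were chosen by symbol, as a hepatic enzyme family, and where a symbol had several transcript rows the one with most reads on average stood for it. RNA was measured by poly-A RNA sequencing in 4 mouse tumours, numbered 1, 5, 9 and 10, all labelled as overexpressing MYC and PMEPA1 after hydrodynamic tail vein delivery, an injection that brings plasmids mainly into hepatocytes. All 4 came from C57BL/6 mice without treatment, carry the label of 8 to 10 passages, and form 1 group; the design text calls the tumours hepatocellular carcinomas. No liver or tumour without the transgenes was analysed here, so nothing below compares conditions, and the promoter that drives the transgenes is not given in the sources used here. The labels do not say that the tumours came from separate animals, so the spread between them may be partly technical.

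Carboxylesterases are serine hydrolases, most of them in the endoplasmic reticulum, that cleave ester, thioester and amide bonds. In liver they activate or clear ester drugs and toxicants, and several of them also hydrolyse triacylglycerol and cholesteryl esters and so take part in lipid storage and in the assembly of very low density lipoprotein (VLDL). The mouse has many more of these genes than the human, in tandem arrays of similar sequence, and hepatocytes express most of the Ces1 and several of the Ces2 genes.

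All 10 genes lie on chromosome 8 (GENCODE M21 annotation, build GRCm38), in 2 arrays. The Ces1 genes run on the minus strand from Ces1b at chr8:93056728-93080017 to Ces1g at chr8:93302369-93337308, and the Ces2 and Ces3 genes run on the plus strand from Ces2a at chr8:104734003-104741634 to Ces3a at chr8:105048601-105058413. The transcripts used have 12 to 14 exons, and the transcript lengths recovered from the deposited tables ran from 1839 bases for Ces1c to 2859 bases for Ces2g. RefSeq promoter windows (build GRCm38.p6) were at hand for 7 of the 10 genes. The upstream 250 bases of 5 of them are printed because these genes form the closest pair by sequence, Ces1b with Ces1c, and the array in which tumour 10 set Ces2a and Ces2g apart from Ces2e; capitals mark the longest run shared by the first 2 and, separately, by the other 3.
Ces1b, chr8:93080018-93080267, minus strand: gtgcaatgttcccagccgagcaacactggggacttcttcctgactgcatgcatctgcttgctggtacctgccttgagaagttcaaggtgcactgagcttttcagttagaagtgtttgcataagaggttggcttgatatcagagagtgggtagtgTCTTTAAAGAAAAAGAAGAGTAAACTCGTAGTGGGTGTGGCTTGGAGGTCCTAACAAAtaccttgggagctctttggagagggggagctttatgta
Ces1c, chr8:93131284-93131533, minus strand: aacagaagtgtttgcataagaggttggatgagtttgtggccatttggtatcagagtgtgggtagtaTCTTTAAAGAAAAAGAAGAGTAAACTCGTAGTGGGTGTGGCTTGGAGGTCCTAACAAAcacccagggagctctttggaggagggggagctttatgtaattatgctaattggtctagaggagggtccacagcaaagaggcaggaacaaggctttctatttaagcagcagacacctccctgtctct
Ces2a, chr8:104733753-104734002, plus strand: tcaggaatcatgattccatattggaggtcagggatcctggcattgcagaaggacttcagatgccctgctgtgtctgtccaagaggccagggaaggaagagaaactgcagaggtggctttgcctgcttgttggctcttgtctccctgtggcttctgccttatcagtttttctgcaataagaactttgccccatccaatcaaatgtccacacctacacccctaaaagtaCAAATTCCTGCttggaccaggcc
Ces2e, chr8:104926010-104926259, plus strand: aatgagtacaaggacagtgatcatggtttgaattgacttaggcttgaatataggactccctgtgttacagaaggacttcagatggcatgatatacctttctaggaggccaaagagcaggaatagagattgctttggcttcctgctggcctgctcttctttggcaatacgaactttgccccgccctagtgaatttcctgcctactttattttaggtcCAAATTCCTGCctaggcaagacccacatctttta
Ces2g, chr8:104961468-104961717, plus strand: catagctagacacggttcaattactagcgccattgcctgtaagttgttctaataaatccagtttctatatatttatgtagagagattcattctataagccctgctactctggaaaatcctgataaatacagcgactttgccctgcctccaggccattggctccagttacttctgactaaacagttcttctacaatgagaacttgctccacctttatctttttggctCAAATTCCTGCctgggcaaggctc
The Ces1b and Ces1c windows shared a run of 58 identical bases, and 137 of 144 locally aligned bases matched (95.1%). Ces1b has a second, inner window, chr8:93079941-93080190, which was not compared. The aligned length and the place of the run before the start rest on the outer Ces1b start. Between Ces2a and Ces2e 131 of 188 aligned bases matched (69.7%), between Ces2a and Ces2g 47 of 63 (74.6%), and between Ces2e and Ces2g 25 of 29 (86.2%); the run common to all 3 was 11 bases long. Upstream, Ces2a thus aligned over more bases with Ces2e than with Ces2g, but at a lower identity. Ces1e, in the other array, matched Ces2a at 21 of 31 aligned bases, Ces2e at 12 of 13 and Ces2g at 11 of 11. High identity over so few bases, or a run of 11, is therefore not particular to the Ces2 genes. The part of these sequences in the values of the tumours was not tested.

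The libraries held 41547938 to 51939623 gene reads, so that 3 reads, the limit a count of 0 allows, correspond to 0.0524 to 0.0892 CPM. CPM is the count scaled to library size, here with trimmed mean of M values (TMM) factors between libraries. The TMM factor was 0.802 in tumour 10 and 1.03 to 1.10 in the other tumours. Scaling by total counts alone moved the median gene by −0.32 on the log2 scale in tumour 10 and by 0.04 to 0.14 in the others.

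Most of the 10 genes stood far higher in tumour 10 than in the other tumours. The 10 genes summed to 2376 CPM in tumour 10, against 238 CPM in tumour 1, 181 CPM in tumour 5 and 67.7 CPM in tumour 9. Of the 10 genes, 9 had their highest value in tumour 10, against 35.8% of the 13129 expressed genes (mean of at least 1 CPM). In tumour 10, 7 of the 10 genes were at least 4 times as high as in each other tumour, against 2.56% of expressed genes. Tumour 9 held the lowest value of 7 of the 10, against 25.5% of expressed genes. Scaled by total counts alone, the numbers of these genes were 9, 6 (Ces1e fell below 4 times) and 7, against 20.2%, 1.84% and 14.9% of expressed genes. All 10 passed the expression threshold, also on the mean of the 3 tumours outside their highest one, though Ces1f (1.07 CPM) and Ces3a (1.44 CPM) only narrowly. Of 18 hepatocyte markers 16 were also highest in tumour 10, where they summed to 48483 CPM, against 18908, 20276 and 25753 CPM in tumours 1, 5 and 9. In bulk RNA fewer cells of a type and less RNA per cell cannot be told apart, and the part of the markers in the carboxylesterase values was not tested.

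**Figure D1:**
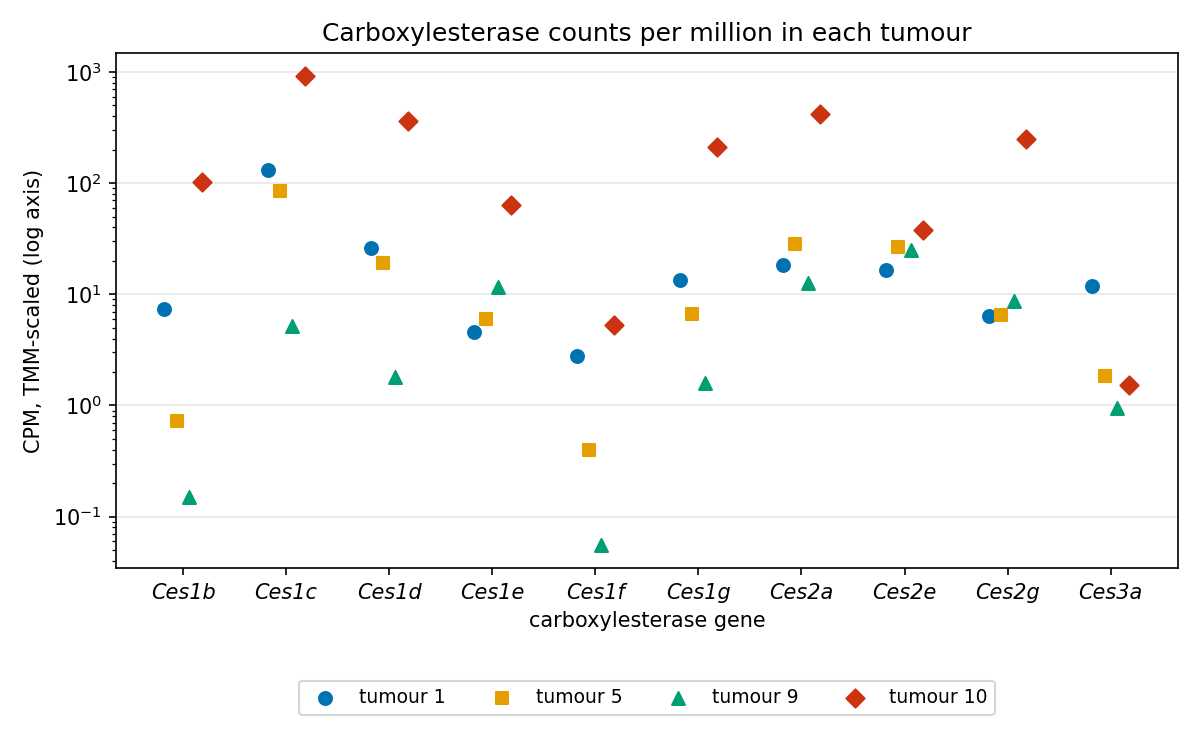
CPM (log axis) of each of the 10 carboxylesterase genes, with 1 point for each of the 4 tumours and no error bars, since each tumour is 1 library. Tumour 10 is the top point for 9 genes, Ces3a is highest in tumour 1, and the 4 points of Ces2e lie close together, between 16.4 and 38.2 CPM.

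Among the Ces1 genes, Ces1c, the esterase that mouse liver secretes into plasma, was the most abundant on average and in tumours 1, 5 and 10. In tumour 9 Ces1e, with 11.7 CPM, stood above Ces1c. Ces1c had 131 CPM in tumour 1, 84.7 CPM in tumour 5, 5.17 CPM in tumour 9 and 913 CPM in tumour 10, from 7484, 3629, 278 and 30711 reads. Tumour 10 was 6.98 times tumour 1, the next highest, and tumour 9 was far below the other 3. Per kilobase of transcript Ces1c averaged 154 CPM, ahead of Ces2a (61.4 CPM per kilobase) and Ces1d (52.3 CPM per kilobase). That mean stood at the 95.5th percentile of expressed genes. Within tumours 1, 5, 9 and 10 the percentiles of Ces1c were 91.3, 85.0, 24.5 and 98.1.

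Ces1d, also known as triacylglycerol hydrolase, mobilises stored triacylglycerol for VLDL. It had 25.9, 19.2, 1.79 and 365 CPM in tumours 1, 5, 9 and 10. Ces1g, an esterase tied to hepatic lipid handling in mice, had 13.5, 6.58, 1.58 and 213 CPM in the same tumours. Both genes were lowest in tumour 9 and were 14.1 times (Ces1d) and 15.8 times (Ces1g) as high in tumour 10 as in the next highest tumour. Ces1b, a close relative of Ces1c, had 7.39, 0.724, 0.149 and 103 CPM, the widest spread of the 10 genes: the SD of its log2 CPM was 3.97. Its value in tumour 9 rests on 8 reads and that in tumour 5 on 31 reads. Ces1f, a relative of Ces1d that also hydrolyses triacylglycerol, was the scarcest, with 2.76, 0.397, 0.0558 and 5.32 CPM. Tumours 1 and 10 were both well above tumours 5 and 9 for Ces1f, tumour 10 by only 1.93 times tumour 1, and tumour 9 held 3 reads.

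Ces1e, known as egasyn, binds β-glucuronidase and keeps it in the endoplasmic reticulum. It departed from its Ces1 neighbours in having its lowest value in tumour 1, with 4.60, 6.02, 11.7 and 63.8 CPM in tumours 1, 5, 9 and 10. Tumour 9, the lowest for the other 5 Ces1 genes, was second for Ces1e. Ces1d and Ces1e lie 3.38 kb apart, yet the ratio of Ces1e to Ces1d CPM was 6.56 in tumour 9, against 0.178, 0.313 and 0.175 in tumours 1, 5 and 10. Gusb, which encodes β-glucuronidase itself, had 117, 166, 127 and 204 CPM, a range far narrower than that of its binding partner.

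Of the Ces2 genes, Ces2a, a hydrolase of drugs and of acylglycerols, had 18.2, 28.2, 12.7 and 423 CPM in tumours 1, 5, 9 and 10. Ces2g had 6.36, 6.56, 8.62 and 250 CPM. Tumour 10 stood alone for both genes, and was 15.0 times the next highest for Ces2a and 29.0 times for Ces2g, the widest such gap of the 10 genes. Ces2e had 16.4, 26.4, 24.9 and 38.2 CPM, which average to 26.5 ± 8.98 CPM (SD, n = 4 tumours). It was also highest in tumour 10, but by only 1.45 times, and the SD of its log2 CPM (0.50) was near the 0.45 median of all expressed genes. Ces2e and Ces2g are separated on chromosome 8 only by Ces2f, which had 2 reads in tumour 10 and none elsewhere. The ratio of Ces2g to Ces2e CPM was 6.54 in tumour 10, against 0.388, 0.248 and 0.346 in tumours 1, 5 and 9.

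Ces3a, a liver esterase of the third subfamily, had another pattern, with 12.0 CPM in tumour 1 against 1.84, 0.949 and 1.52 CPM in tumours 5, 9 and 10. Tumour 1 was 6.48 times the next highest. It was the only one of the 10 with its highest value in tumour 1, where 21.4% of expressed genes had theirs, or 29.6% with scaling by total counts alone. In tumour 10 it rested on 51 reads.

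**Figure D2:**
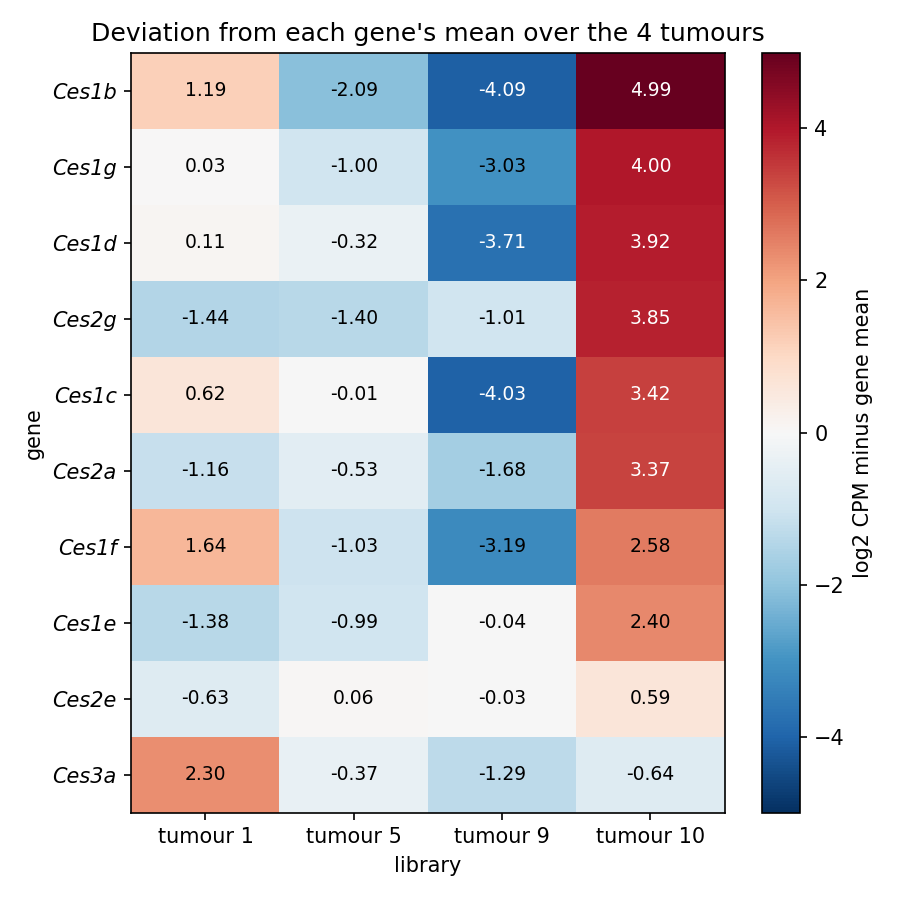
Deviation of log2 CPM from the gene's own mean over the 4 tumours, with genes in rows and tumours in columns, red above and blue below the mean. Tumour 10 is above the mean by 2.40 or more for 8 genes, tumour 9 is below it by 3.03 or more for 5 of the 6 Ces1 genes but by 0.04 for Ces1e, and Ces3a is above its mean in tumour 1 alone.

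The median deviation of the 10 genes from their own means, on the log2 CPM scale, was 3.40 in tumour 10, 0.07 in tumour 1, −0.76 in tumour 5 and −2.35 in tumour 9. For all expressed genes the same medians were 0.02, −0.01, 0.00 and −0.04. The median SD of log2 CPM over the tumours was 2.59 for the 10 genes and 0.45 for all expressed genes. An SD of at least 1 was found for 9 of the 10, Ces2e being the exception, and for 16.6% of expressed genes.

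The spread of all 10 genes exceeded counting error in a Poisson test over the 4 libraries with Benjamini-Hochberg adjustment, as did that of 98.7% of expressed genes. Ranked within each gene, 27 of the 30 steps between neighbouring tumours also exceeded counting error (exact binomial test of the 2 counts, two-sided, adjusted over the 30 steps). The 3 that did not were tumours 5 and 9 for Ces2e (adjusted p = 0.155), tumours 5 and 1 for Ces2g (adjusted p = 0.720) and tumours 5 and 10 for Ces3a (adjusted p = 0.300). Both tests cover counting error only. The steps were ranked by the same counts that were tested and were not computed for all expressed genes. The 27 of 30 therefore shows nothing particular to these 10 genes.

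Against the spread among the other tumours, no single tumour could be called. With edgeR's quasi-likelihood test of each tumour against the other 3, adjusted over all expressed genes and the 4 tumours, 0 of the 10 genes and 0% of expressed genes passed an adjusted p of 0.05. The lone tumour is assumed there to vary like the others. Ces2g came nearest, with a log2 fold change of 5.12 ± 0.26 (SE) in tumour 10 and an adjusted p of 0.0876, followed by Ces2a with 4.42 ± 0.43 and an adjusted p of 0.104. Ces1e had 3.10 ± 0.54 (adjusted p = 0.228) and Ces1g 4.88 ± 1.01 (adjusted p = 0.323). Ces1c, the most abundant on average, had 3.63 ± 1.40, and its other 3 tumours ran from 5.17 to 131 CPM.

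Without adjustment, 6 of the 10 genes had an edgeR p under 0.05 for a higher value in tumour 10, against 13.9% of expressed genes. Those were Ces1b, Ces1d, Ces1e, Ces1g, Ces2a and Ces2g. For tumour 1 the higher call was Ces3a alone (edgeR, unadjusted p = 0.00905), against 0.427% of expressed genes, and for tumour 9 the lower call was Ces1c alone (edgeR, unadjusted p = 0.0412), against 1.9%. Adjusting within tumour 10 alone passed Ces2g (edgeR, adjusted p = 0.0226) and Ces2a (edgeR, adjusted p = 0.028), among 230 such calls over all genes and tumours. Leaving out tumour 9 gave 5 calls among the 10 genes, all in tumour 10, of 414 over all genes. DESeq2's Wald test gave 10 calls over these genes and the tumours, of 1749 over all genes, 5 in tumour 9 and 4 in tumour 10.

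The make-up of the enzyme pool also differed between tumours. As a share of the summed CPM per kilobase of the 10 genes, Ces1c made up 58.8% in tumour 1, 51.4% in tumour 5, 9.58% in tumour 9 and 42.1% in tumour 10. In tumour 9 the leading transcript was Ces2e, with 31.4% of the pool, followed by Ces2a with 22.1% and Ces1e with 19.3%. Ces2e made up 5.02%, 10.9% and 1.20% in tumours 1, 5 and 10. In CPM, the 6 Ces1 genes summed to 1663 in tumour 10 and 20.5 in tumour 9, an 81.2-fold gap, whereas the 3 Ces2 genes summed to 712 and 46.3, a 15.4-fold gap.

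**Figure D3:**
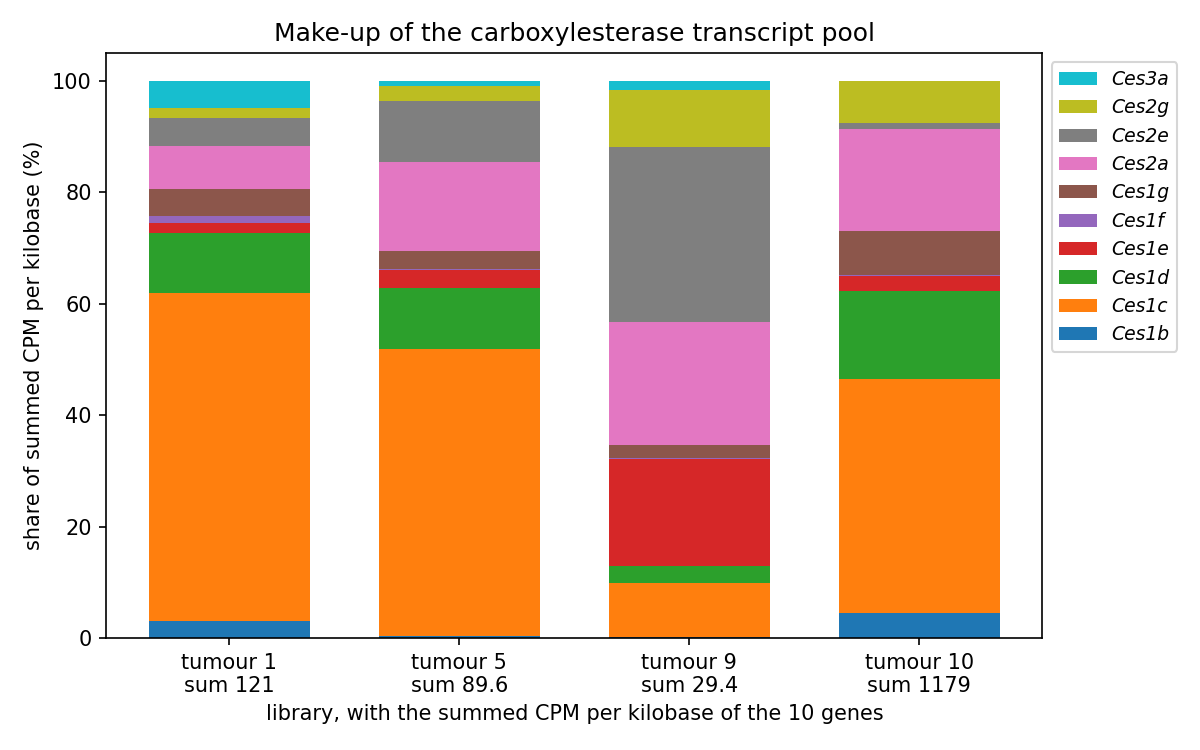
Share of each gene in the summed CPM per kilobase of the 10 genes, as 1 stacked bar per tumour, with the sum under each bar. Ces1c fills over 40% of the bars of tumours 1, 5 and 10 but 9.58% of that of tumour 9, where Ces2e, Ces2a and Ces1e lead.

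The other carboxylesterase genes were scarce. Of the 9 with a row, 2 reached a mean of 1 CPM. Ces2b had 0.105, 0.514, 4.13 and 1.87 CPM in tumours 1, 5, 9 and 10, and Ces2c had 0.542, 1.66, 3.85 and 1.49 CPM. Both were highest in tumour 9, where the neighbouring Ces2a was lowest, and so was Ces2h with 0.315, 0.374, 1.58 and 0.149 CPM, from 5 to 85 reads. Ces1a, which lies beside Ces1b in the array, had 20 reads in tumour 10, 1 in tumour 1 and none in the other two, and Ces5a had none in any tumour.

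**Figure D4:**
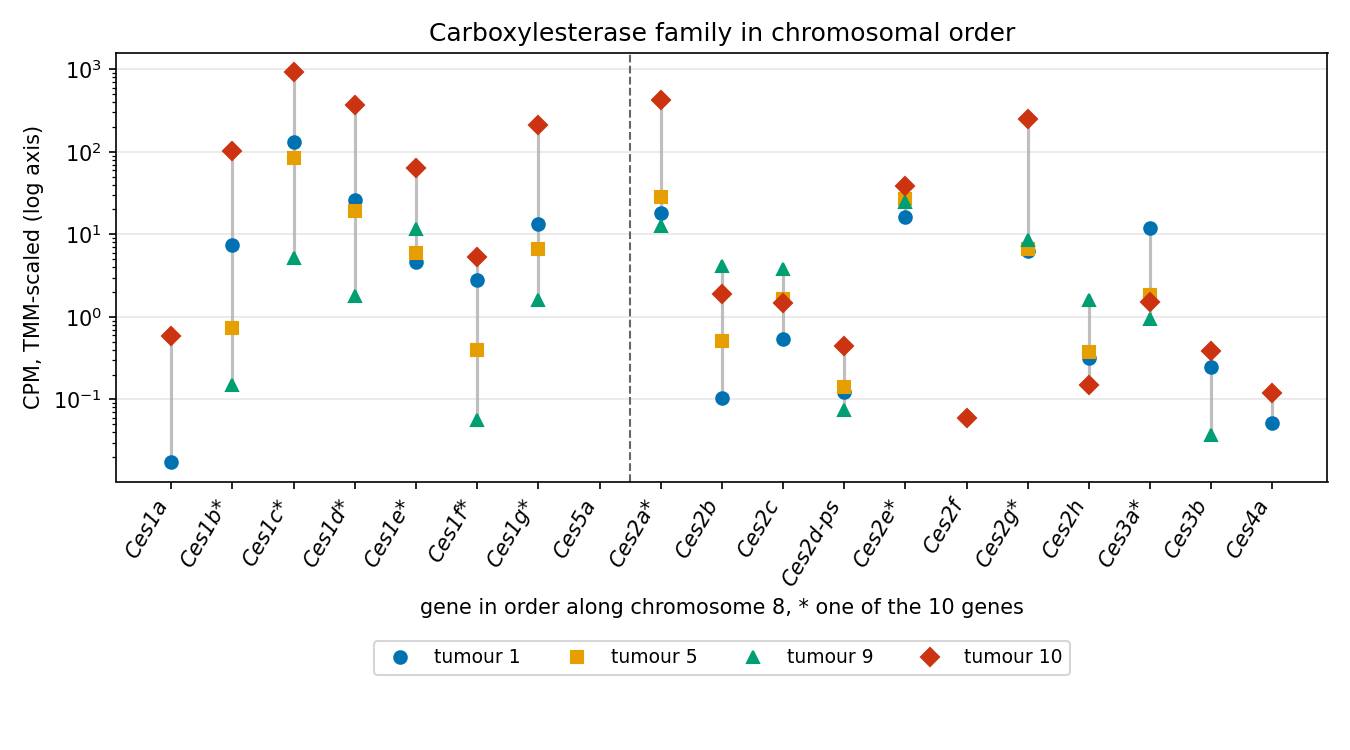
CPM (log axis) of all 19 family genes with a row, in order along chromosome 8, with 1 point per tumour and libraries at 0 reads left out; the grey bar spans the points and the dashed line parts the minus-strand array on the left from the plus-strand array on the right. Tumour 10 is the top point for every Ces1 gene shown, while on the right Ces2b, Ces2c and Ces2h are highest in tumour 9 and Ces2e lies between 16.4 and 38.2 CPM.

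Likeness of sequence and likeness of pattern did not run together throughout. Coding sequences were 72.1% to 90.9% identical among the 15 pairs of Ces1 genes, 81.6% to 83.3% among the 3 pairs of Ces2 genes and 58.9% to 63.4% among the 27 pairs between subfamilies. Pattern was compared as the root mean square (RMS) difference between 2 genes' log2 CPM deviations over the 4 tumours. Its median was 1.18 within Ces1 (0.42 to 2.78), 1.67 within Ces2 (0.61 to 1.89) and 2.02 between subfamilies (0.89 to 3.31). Pairs within a subfamily were thus closer at the median, with overlapping ranges. The closest pairs were Ces1c with Ces1d (RMS difference 0.42, 78.9% identical), Ces1d with Ces1g (0.49, 81.6% identical) and Ces2a with Ces2g (0.61, 81.6% identical). Ces1b and Ces1c, with 90.9% the most similar in sequence, differed by an RMS of 1.33, and Ces2e differed by 1.67 from Ces2a and by 1.89 from Ces2g.

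**Figure D5:**
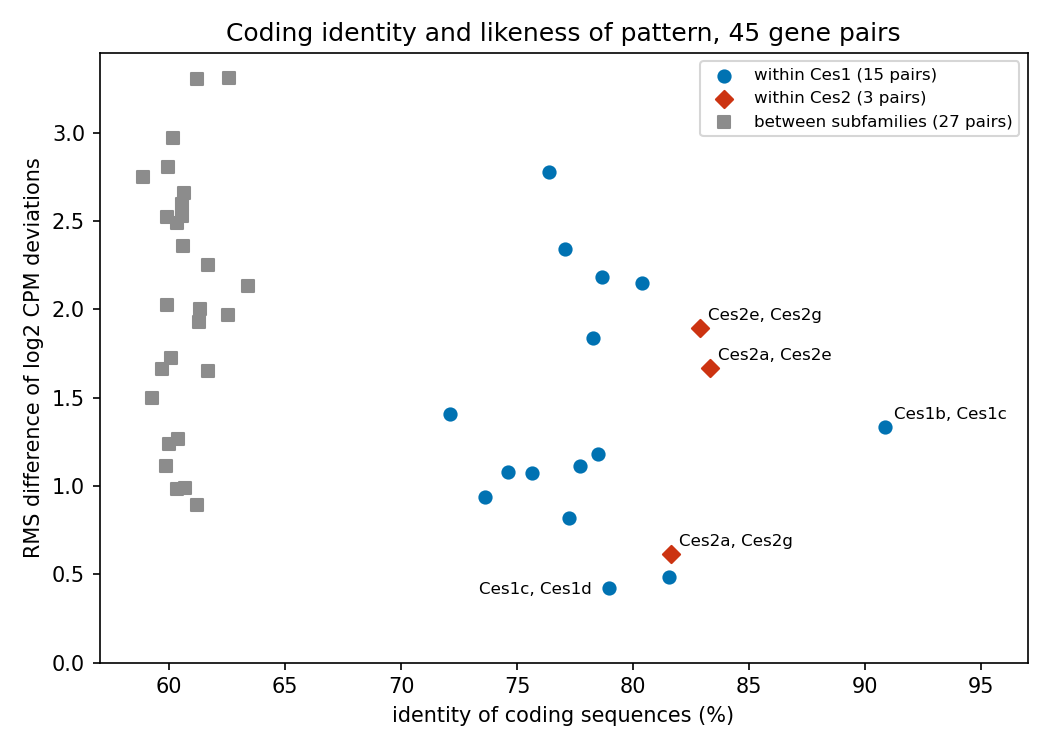
RMS difference of log2 CPM deviations against identity of coding sequences, with 1 point for each of the 45 gene pairs, which share genes and the same 4 libraries. The Ces2a and Ces2g pair lies low at 0.61, the 2 Ces2 pairs with Ces2e lie at 1.67 and 1.89 at about the same identity, and Ces1b with Ces1c, farthest right, lies at 1.33.

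Shared sequence bears on the counts, since how the authors' counting treated a read that matches several genes is not given in the sources used here. Of all 50-base stretches of the GENCODE transcript, 11.6% in Ces1b, 17.0% in Ces1c, 22.2% in Ces2a and 30.9% in Ces3a also occurred in a transcript of another gene, against 1.28% to 4.02% in the other 6. For stretches of 100 bases the shares were 1.29% in Ces1b, 1.39% in Ces1c, 10.7% in Ces2a, 9.09% in Ces3a and 0% in the other 6. Counts of the 4 genes with shared stretches are uncertain. The main partner of Ces1b was Ces1c and the reverse, that of Ces2a was the pseudogene Gm7208, and that of Ces3a was Ces3b, which had 14 reads at most in any tumour. Ces1b amounted to 5.65%, 0.854%, 2.88% and 11.3% of the Ces1c CPM in tumours 1, 5, 9 and 10, so the ratio between these partners was not constant.

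Motifs were searched as letters on both strands of the upstream 250 bases, in 8 windows of 7 genes, Ces1b having 2 overlapping ones. The TATA box letters TATAAA were found in the window of Ces1g only, and in 12.4% of all 32817 promoter windows. In Ces1g they lay on the strand opposite to the gene, 26 bases before the RefSeq start, and read TTTATA in the gene's direction. None of the 8 windows thus held TATAAA in the gene's own direction. The Ces1g window, chr8:93337210-93337459, overlaps the GENCODE gene, whose outer end is at 93337308. The TTTATA letters therefore lie inside the gene as GENCODE annotates it. The nuclear receptor half-site AGGTCA was found in that of Ces2a only, 226 bases before the start, and in 14.0% of all windows. The HNF1 half-site GTTAAT, the HNF4 motif AAAGTCCA, the FOXA motif TGTTTAC and the MYC E-box CACGTG were in none of the 8, and in 6.44%, 1.01%, 3.16% and 6.02% of all windows. No motif overlapped another in these windows. Which of these letters a factor binds in the tumours was not measured.

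Genes for nuclear receptors known to act on carboxylesterase and drug metabolism genes differed in pattern. Nr1i2, the pregnane X receptor, had 81.1, 85.7, 88.1 and 411 CPM in tumours 1, 5, 9 and 10, high in tumour 10 alone. Nr1i3, the constitutive androstane receptor, had 22.8, 19.3, 44.5 and 10.7 CPM and was lowest in tumour 10. Hnf4a, a master regulator of hepatocyte genes, had 508, 567, 382 and 809 CPM, and Rxra, the partner of many nuclear receptors, had 205, 207, 234 and 475 CPM. Ppara, the fatty acid receptor, stayed between 80.3 and 120 CPM. Foxa1 had 15.3, 0.210, 0.223 and 14.6 CPM, near 0 in tumours 5 and 9. Of 25 expressed nuclear receptors and liver factors, 14 were highest in tumour 10, 9 had an unadjusted edgeR p under 0.05 there for a higher value and 2 for a lower one, and 0 passed the adjustment.

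Other enzymes of ester and lipid turnover were also often highest in tumour 10. Of 16 other ester, lactone and epoxide hydrolases, 13 were highest in tumour 10, with a median deviation of 0.58 there on the log2 scale, 8 with an unadjusted edgeR p under 0.05 for a higher value and 0 for a lower one. Aadac, an esterase of the endoplasmic reticulum, had 146, 190, 134 and 286 CPM in tumours 1, 5, 9 and 10, and Pon1, the plasma paraoxonase, had 26.8, 3.34, 1.90 and 67.9 CPM. Pon1, like most Ces1 genes, was lowest in tumour 9. At least 4 times each other tumour in tumour 10 were 4 of the 16, named here after their values were seen. Ephx1, the microsomal epoxide hydrolase, had 330 CPM in tumour 10, 11.8 times the next highest tumour, and Ephx2, the soluble one, had 392 CPM, 5.17 times the next highest. Pon3, a lactonase, had 37.2 CPM and Cmbl, which activates ester and lactone drugs, had 127 CPM in tumour 10, against at most 3.53 CPM for Pon3 and 12.7 CPM for Cmbl elsewhere. Gaps as wide as that of Ces1c were thus present for 3 of these hydrolases.

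Of 17 expressed neutral lipid lipases and cofactors 11 were highest in tumour 10, with a median deviation of 0.52 there, 5 unadjusted higher calls and 2 lower ones. Pnpla2, the adipose triglyceride lipase, had 61.9, 87.3, 109 and 210 CPM, whereas Lipc, hepatic lipase, had 31.3, 31.9, 44.8 and 27.4 CPM and was lowest in tumour 10. Lpl, lipoprotein lipase, had 94.2, 159, 310 and 617 CPM. Of 18 expressed genes of lipid droplets and VLDL assembly 12 were highest in tumour 10, with a median deviation of 0.33, 5 unadjusted higher calls and 1 lower one. Mttp, which loads lipid onto apolipoprotein B, had 300.4, 434, 445 and 457 CPM, and Apob had 1162, 1564, 1229 and 1755 CPM.

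Of 9 genes of endoplasmic reticulum retention and chaperoning 2 were highest in tumour 10, with 0 unadjusted higher calls and 1 lower one. Kdelr2, a receptor that retrieves proteins with the retention signal of carboxylesterases kept in the endoplasmic reticulum, had 121, 111, 103 and 42.8 CPM and was lowest in tumour 10. Hspa5, the chaperone BiP, stayed between 835 and 1089.7 CPM. None of the genes in these lists passed the edgeR test adjusted over all genes and tumours.

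By the fixed measure of likeness, the smallest RMS difference of log2 CPM deviations over the 4 tumours among expressed genes outside the family, Ces2a was nearest to Aifm2 (RMS difference 0.02) and then to 1700101E01Rik (0.16). Aifm2 had 11.5, 18.3, 7.97 and 266 CPM in tumours 1, 5, 9 and 10, the same order as Ces2a. Ces1c was nearest to Myh14 (0.20), with 13.8, 12.5, 0.614 and 133 CPM, and to Mettl7b (0.31), with 16.9, 7.12, 0.614 and 138 CPM. Ces1d was nearest to Uox, the urate oxidase gene (0.33), with 111, 147, 12.1 and 1852 CPM, and then to Mettl7b (0.36). With 4 libraries and 13129 genes, a close match over so few points is a description only.

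Markers of cell types were read beside these values. Hepatocyte markers were abundant in all 4 tumours, and Alb had 4732, 4520, 5594 and 13400 CPM in tumours 1, 5, 9 and 10. The 10 carboxylesterases amounted to 4.90% of the hepatocyte marker sum in tumour 10, against 1.26% in tumour 1, 0.891% in tumour 5 and 0.263% in tumour 9. Tdo2, the hepatocyte marker with the widest spread, had 29.0, 2.22, 2.77 and 1594 CPM. Of 12 periportal markers 11 were highest in tumour 10, Ass1 with 1067, 1229, 1415 and 6824 CPM, whereas of 9 expressed pericentral markers 5 were highest in tumour 1 and 2 in tumour 10.

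Among other cells, 7 of 10 expressed Kupffer cell and macrophage markers were highest in tumour 9, against 21.6% of expressed genes. The list summed to 977 CPM there, 431 CPM of it from Cd5l, against 217 to 406 CPM in the other tumours. The other 3, Clec4f, Marco and Vsig4, were highest in tumour 1. Clec4f had 20.7 CPM in tumour 1 and 0.744 CPM in tumour 9. Of 9 expressed endothelial markers 7 were also highest in tumour 9 (187 CPM against 109 to 116 CPM). None of 10 stellate cell and fibroblast markers was highest in tumour 10, which had 112 CPM against 294 to 511 CPM. Cholangiocyte markers summed to 38.4 CPM in tumour 10, against 37.0 to 105 CPM in the others, and 4 of 6 expressed ones were lowest there.

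The fetal liver and liver tumour genes divided in tumour 10. H19, a fetal non-coding RNA, had 38040 CPM there, against 22651 to 28060 CPM in the other tumours, and made up most of the list's sum of 48004 CPM in tumour 10. Yet the median deviation of the 11 expressed genes was −1.48 in tumour 10, with 5 unadjusted edgeR calls for a lower value and 2 for a higher one. Afp, the fetal albumin relative alpha-fetoprotein, had 1922, 3763, 4974 and 119.6 CPM in tumours 1, 5, 9 and 10. Named after their values were seen, Dlk1 had 2.41 CPM in tumour 10 against at least 149 CPM elsewhere, Gpc3 had 0.535 CPM against at least 5.53 CPM, and Meg3 had 2.35 CPM against at least 119 CPM. Tumour 10 thus held the highest values of most carboxylesterases beside the lowest of these 4 genes. Of the 11 expressed genes of the list, 5 were lowest in tumour 10 and 3 were highest there. The 3 were H19, Igf2, with 9667 CPM against at most 5890 CPM elsewhere, and Igf2bp3, with 150 CPM against at most 123 CPM.

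Among markers of other tissues that express carboxylesterases, the adipocyte marker Lep was at 0 reads in all 4 tumours and Adipoq, Plin1 and Retn had 3 reads at most, whereas all 3 expressed genes of that list were highest in tumour 10, as were most carboxylesterases. Fabp4, a fatty acid binding protein gene, had 23.7, 37.8, 51.4 and 63.6 CPM in tumours 1, 5, 9 and 10, and Cidec, of lipid droplets, had 3.69, 7.40, 16.9 and 25.7 CPM. The list summed to 92.4 CPM in tumour 10, against 30.7, 46.8 and 68.9 CPM in tumours 1, 5 and 9. Of the gut list, which summed to 76.7 CPM in tumour 10 against 29.8, 53.7 and 70.3 CPM in tumours 1, 5 and 9, Sis was at 0 in all 4, while Vil1 had 4.96, 29.7, 1.32 and 39.2 CPM and Lgals4 had 12.8, 9.50, 58.2 and 36.1 CPM. Of the pancreatic acinar list, which summed to 9.69 CPM in tumour 10 against 17.1, 6.93 and 21.1 CPM, Pnlip and Cel were at 0 in all 4. Of the kidney tubule list, which summed to 0.892 CPM in tumour 10 against 5.19, 45.1 and 11.4 CPM, Slc12a1, Aqp2 and Kap were at 0 in all 4, while Lrp2 had 2.92, 42.7, 9.68 and 0.0595 CPM. The part of these other cells in the carboxylesterase values was not tested.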

How the data were processed

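Poly-A RNA from 4 mouse tumours was extracted with Trizol, treated with DNase I and made into TruSeq libraries, per the labels' protocols. The submitters' processing notes name FastQC 0.11.8 and GRCm38. Aligner, counting program, read length and use of strand: not given in the sources used here, and antisense overlaps may therefore add reads. The tables list 33984 transcript rows each. The authors' deposited counts are whole reads per transcript row and were the values analysed. Deposited FPKM values (per the file headers) served to recover transcript lengths, and the deposited TPM column was not used for tests.

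For each symbol the row with the highest mean count was kept. Counts were scaled by TMM in edgeR 4.0.16 (R 4.3.3), and log2 CPM used a prior count of 2. Genes averaging 1 CPM or more counted as expressed. Each tumour was set against the other 3 with edgeR's quasi-likelihood test (glmQLFit, robust), two-sided, with Benjamini-Hochberg adjustment over all expressed genes and the 4 tumours. limma 3.58.1 (voom), DESeq2 1.42.0, total-count and DESeq2 scaling, no filter, a prior count of 0.5, summed rows, 5% added technical variation and leaving out each tumour were alternatives. The scripts were tested on simulated data. Transcripts came from GENCODE M21, promoters from RefSeq. Coding sequences were aligned with Biopython 1.88.

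Genes named were the 10 members, the rest of the family, and of 19 gene lists those fixed by mean CPM or spread, a few regulators and partners named singly, and for the 3 members highest per kilobase the 2 genes nearest in pattern. The members and lists were chosen with earlier results of these data known. The step-by-step comparison of neighbouring tumours, the motifs and the upstream sequences were chosen after the data were seen. The edgeR, limma-voom and DESeq2 p-values measure only the spread between these samples, and those of the Poisson and exact binomial tests only counting error.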

Additional observations from a re-analysis of the deposited data

Results flagged for a closer look

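In each group of 4 tumours a value was looked at again when its gap to the nearest other tumour, divided by the whole range, passed Dixon's 95% critical value. For normally distributed values chance flags about 1 in 20 such groups. CPM was used here without a log, so that rate need not hold, and the share of all expressed genes is given beside the counts. Of 51 genes looked at in this way 23 passed, 8 of them among the 10 carboxylesterases, against 12.3% of all 13129 expressed genes. With tumour 10 as the high value 7 of the 10 passed, against 6.86% of expressed genes; with scaling by total counts alone the numbers were 7 and 6 of the 10, against 10.8% and 3.40%. In tumour 10 the value far above the others was 103 CPM for Ces1b, 913 CPM for Ces1c, 365 CPM for Ces1d, 63.8 CPM for Ces1e, 213 CPM for Ces1g, 423 CPM for Ces2a and 250 CPM for Ces2g. In tumour 1 it was 12.0 CPM for Ces3a, and in tumour 9 it was 1.58 CPM for Ces2h, a relative outside the set of 10. Ces1f and Ces2e were the members that did not pass.

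Of the genes read beside them, tumour 10 stood far above the others with 411 CPM for Nr1i2, 475 CPM for Rxra, 13400 CPM for Alb, 6824 CPM for Ass1 and 1594 CPM for Tdo2. The same held for the genes nearest in pattern, with 266 CPM for Aifm2, 133 CPM for Myh14, 138 CPM for Mettl7b and 1852 CPM for Uox, which were chosen for that likeness. So did 330 CPM for Ephx1, 392 CPM for Ephx2, 37.2 CPM for Pon3 and 127 CPM for Cmbl, named because of such a gap. Mttp was far below the others in tumour 1, with 300.4 CPM. Tumour 10 also had the lowest TMM factor, and its hepatocyte marker sum was the highest; their part in these values was not tested.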

How the results depend on the processing

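Of 424 values recomputed under an alternative, 410 were labelled the same. For a deviation that meant a move of at most 1 SD over the tumours, and for a count or a spread a ratio of at most 1.5. The SD takes in the tumour 10 gap itself and reached 3.97 for Ces1b. This allowance was therefore wide and also let changes of sign pass as the same. With no filter on low counts 2 calls fell on the 10 genes and 131 on all genes for 1 tumour against the other 3 (edgeR), with adjustment for each tumour alone 2 and 230, and with DESeq2's Wald test 10 and 1749, against 0 and 0; limma-voom called 0 and 0. Leaving out 1 tumour gave 0 to 5 calls on the 10 genes and 0 to 414 on all genes: without tumour 9 it was 5 and 414, without tumour 10 it was 0 and 30, and without tumour 1 or tumour 5 it was 0 and 0. Of the 10 genes, 1 to 6 were highest in tumour 1, 0 to 2 in tumour 5 and 0 to 2 in tumour 9 when 1 tumour was left out, the upper values without tumour 10. The median SD of log2 CPM ran from 1.72 without tumour 10 to 3.02 without tumour 5, and the median deviation in tumour 10 from 2.51 to 3.29. In tumour 1 that median, 0.07 with all tumours, was −0.84 without tumour 9, −0.15 without tumour 5 and 1.40 without tumour 10, and in tumour 5, −0.76 with all tumours, it was 0.07 without tumour 10. Deviations of single genes changed sign in 5 of 200 recomputed with all tumours and in 16 of 120 with a tumour left out, Ces3a in tumour 10 among them (−0.64 with all tumours, 0.13 without tumour 1), and none moved by over 1 SD. The cause of these shifts was not tested. Depth limits Ces1f and Ces1b in tumour 9, at 3 and 8 reads.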
